A study of Homo sapiens with 4 samples.

Results

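A set of 10 genes of the canonical Wnt pathway were followed through a map of USF1 binding in Huh7 cells. They are the 3 Dishevelled genes (DVL1, DVL2, DVL3), the scaffold genes AXIN1, AXIN2 and APC, the kinase gene GSK3B, the co-receptor gene LRP6, the β-catenin gene CTNNB1 and the DNA-binding factor gene TCF7L2. These 10 of the 20037 protein-coding genes examined were chosen with earlier results of the same peaks known: DVL2 was picked for its strong peak, and the others for their place in the pathway. Their peak values are therefore given as a description, with no test. For each gene, peaks were taken whose centre lay inside the gene or within 10 kb of it, or else the nearest peak.

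Huh7 is an established hepatocellular carcinoma line. USF1, a bHLH-ZIP transcription factor that binds E-box sequences, was overexpressed, and chromatin was precipitated with an antibody against the FLAG tag. There were 4 libraries, all from the same line: IP 1 and IP 2 from precipitated chromatin, and input 1 and input 2 from chromatin before precipitation. No cells without the overexpressed factor and no IgG library were used here. Sites bound at the normal level of USF1 therefore cannot be told apart from sites bound at the raised level. Signal that the antibody would give without the tagged factor cannot be told apart from USF1 binding either. The labels do not say whether the replicates came from separate cultures, and peak lists hold no expression values, so the cell line was not checked against liver markers. The libraries kept 43562726 to 47165647 tags after duplicate removal, and the deposited peaks form list 1 (IP 1 against input 1, 14300 peaks) and list 2 (IP 2 against input 2, 27325 peaks). Peaks of both lists that overlapped by at least 1 bp are called shared. The fold of a peak is the authors' ratio of IP tags at its summit to the tags expected there from input and local background, and its false discovery rate (FDR) is the authors' percent from a call with IP and input swapped.

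In the canonical Wnt pathway a secreted Wnt ligand joins a Frizzled receptor to LRP6, and Dishevelled is recruited to the membrane. Without a ligand, a complex of AXIN, APC, GSK3B and casein kinase 1 marks β-catenin for destruction. When the complex is held off by Dishevelled, β-catenin enters the nucleus and activates genes together with factors such as TCF7L2. AXIN2 is itself a common target of the pathway and feeds back on it. In liver the pathway sets the zonation of hepatocytes, and CTNNB1 and AXIN1 are recurrently mutated in hepatocellular carcinoma.

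The sequences just before the RefSeq starts of DVL2 and APC carry the pattern that stood out among the 10 genes: the palindromic E-box CACGTG lay close to the summits of both lists. Below are the 250 bases before each start, 5′ to 3′ on the gene's strand, from the RefSeq promoter table of GRCh38.p14. Capitals mark CACGTG, which reads the same on both strands. Both starts of APC are shown, the outer one at the gene's 5′ end and an inner one within the gene, because the peaks at them differed. CTNNB1 is shown as a member with a peak in list 2 alone, and TNKS2, a Wnt gene from the wider list below, as a further start that held the summits of both lists.
DVL2, chr17:7234518-7234767, minus strand: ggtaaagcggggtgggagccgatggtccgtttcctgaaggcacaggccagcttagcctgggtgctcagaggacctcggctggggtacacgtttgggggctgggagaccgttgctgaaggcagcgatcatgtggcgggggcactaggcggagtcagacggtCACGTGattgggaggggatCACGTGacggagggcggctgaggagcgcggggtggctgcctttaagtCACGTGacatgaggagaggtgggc
APC inner start, chr5:112737635-112737884, plus strand: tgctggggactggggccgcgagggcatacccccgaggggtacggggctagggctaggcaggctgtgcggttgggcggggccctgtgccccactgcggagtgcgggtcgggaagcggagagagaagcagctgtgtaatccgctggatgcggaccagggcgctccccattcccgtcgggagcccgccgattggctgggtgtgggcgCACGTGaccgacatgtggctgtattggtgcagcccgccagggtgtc
APC outer start, chr5:112707248-112707497, plus strand: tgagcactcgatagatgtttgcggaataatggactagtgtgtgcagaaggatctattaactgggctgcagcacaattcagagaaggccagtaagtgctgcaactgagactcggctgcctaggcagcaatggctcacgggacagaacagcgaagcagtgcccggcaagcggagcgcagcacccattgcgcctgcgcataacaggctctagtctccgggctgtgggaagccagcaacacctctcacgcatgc
CTNNB1, chr3:41199255-41199504, plus strand: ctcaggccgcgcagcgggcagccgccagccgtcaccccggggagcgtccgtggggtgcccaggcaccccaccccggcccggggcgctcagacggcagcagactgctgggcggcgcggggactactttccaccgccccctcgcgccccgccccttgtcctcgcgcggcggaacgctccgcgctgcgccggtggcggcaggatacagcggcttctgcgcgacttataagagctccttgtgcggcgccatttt
TNKS2, chr10:91798176-91798425, plus strand: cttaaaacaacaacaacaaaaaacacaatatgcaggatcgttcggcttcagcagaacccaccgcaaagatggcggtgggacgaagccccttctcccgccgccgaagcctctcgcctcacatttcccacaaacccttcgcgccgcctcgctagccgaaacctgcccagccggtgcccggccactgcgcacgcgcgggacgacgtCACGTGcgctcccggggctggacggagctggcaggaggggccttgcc

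DVL2 had 3 copies of CACGTG in this stretch, which began 90, 71 and 24 bases before its start. The list 1 summit lay 66 bp upstream of the start and 2.5 bp from the centre of the middle copy. The list 2 summit lay 32 bp upstream, 10.5 bp from the centre of the copy nearest the start. The summits were thus nearest to different copies, 34 bp apart, within one promoter. A further element of the wider E-box class CANNTG (N is any base, so the class includes CACGTG), with the letters CATGTG, began 124 bases before the start.

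At APC the single CACGTG began 46 bases before the inner start. The list 1 summit lay 1.5 bp from its centre and the list 2 summit 5.5 bp from it, so the first fell inside the 6-base element and the second just upstream of it. Other members of the CANNTG class began 125 bases (CAGCTG) and 35 bases (CATGTG) before this start. The outer start of APC had no CACGTG and 1 CANNTG element, 151 bases before it. CTNNB1 had neither.

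Of the 10 genes, 8, with 11 promoter windows of 300 bases (250 before the start and 50 after it), were found in the promoter table. CACGTG occurred in 2 of these windows, those of DVL2 and the inner start of APC, and these were also the 2 windows that held the summits of both lists. Over all 34943 distinct windows of the table, 7.23% held CACGTG and 3.89% held both summits of a shared peak. A list 1 summit lay in 3 of the 11 windows, beside 6.48%, and a list 2 summit in 4, beside 11.1%. Of the 1361 windows with both summits, 677 (49.7%) held CACGTG, against 4.83% of the 30143 windows with no summit of either list. Copies numbering 3 or more, as at DVL2, were present in 33 windows (0.0944%), of which 21 held both summits. In windows with CACGTG and both summits, the mean distance of the 2 summits from the nearest copy had a median of 16.5 bp. The wider class CANNTG did not separate windows in this way: it was in 75.5% of the windows with both summits and in 69.6% of those with none. Windows of alternative starts of one gene can overlap, and a match is a run of letters, not a measured contact.

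**Figure D1:**
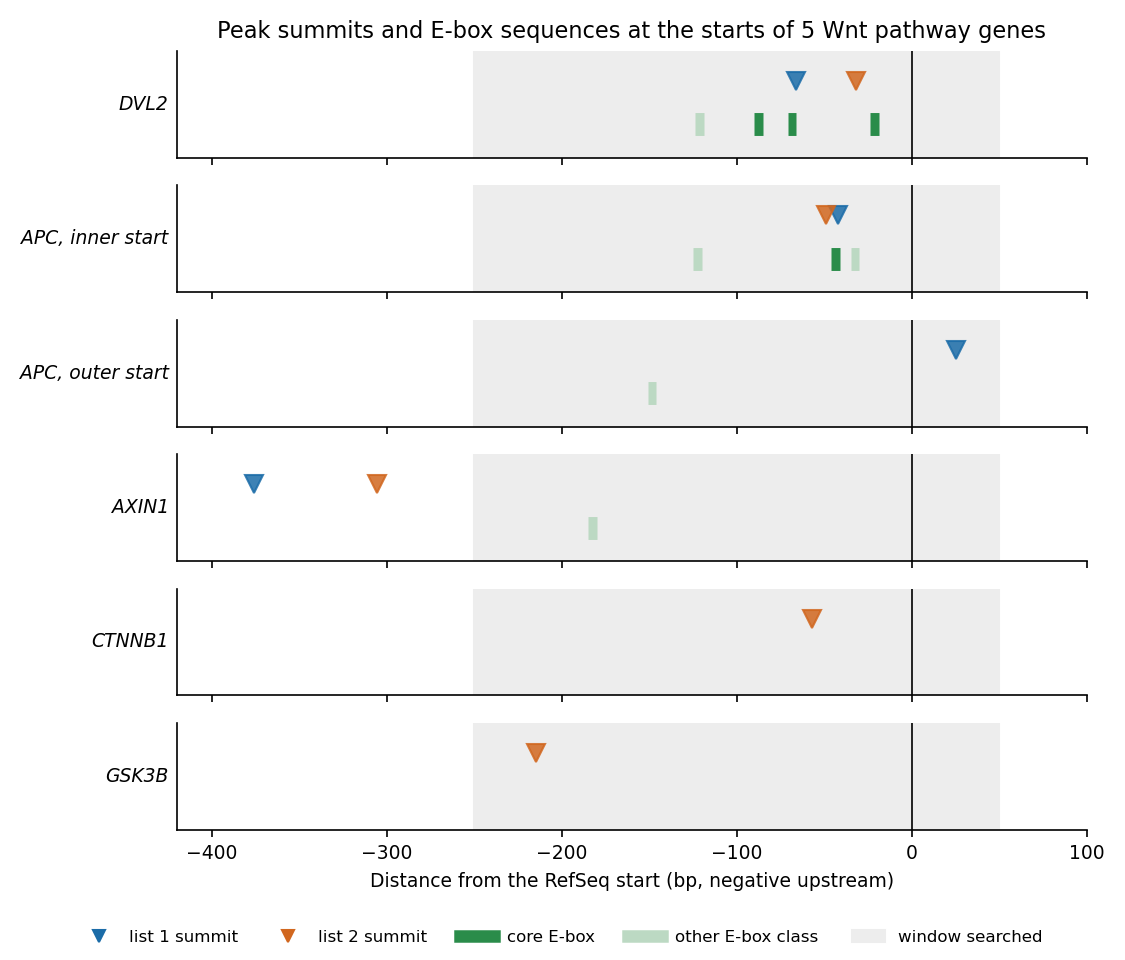
Peak summits (triangles, list 1 blue and list 2 orange) and E-box elements (dark green for CACGTG, pale green for other members of the CANNTG class) against distance from the RefSeq start in bp, for 6 starts of 5 genes, with the 300-base window searched in grey. At DVL2 and the inner APC start the summits of both lists sit on or beside a dark green element, while the AXIN1 summits lie 376 and 306 bp upstream, outside the window.

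DVL2, which passes the signal from the receptor to the destruction complex, carried the strongest peak of the 10 genes in both lists by fold. In list 1 the peak spanned 1107 bp at chr17:7234003-7235109 and held 180 IP tags (95% exact Poisson interval 154.7 to 208.3), with a fold of 25.89. In list 2 it spanned 1250 bp at chr17:7233893-7235142 and held 206 tags (178.8 to 236.1), with a fold of 34.29. The Poisson intervals cover counting error only and overlap between the lists. Scaled to the tags kept, the peak had a relative level of 3.82 in list 1 and 4.69 in list 2 (tags per 1000000 kept), and the FDR was 0 in both. The list 1 peak lay wholly inside the list 2 peak.

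By fold the DVL2 peak exceeded 99.91% of list 1 peaks and 99.92% of list 2 peaks. By tag count it exceeded 97.57% and 97.39%. Ranked by the lower of its 2 folds it was at rank 10 of 1907 shared gene-end peaks, those whose centre lies within 1 kb of an end of a protein-coding gene. By the fold of one list alone it was at rank 10 of 2517 gene-end peaks in list 1 and at rank 20 of 5252 in list 2. Among the shared gene-end peaks its neighbours in this order were close in value. Just above came MCOLN1, a lysosomal cation channel gene, with a lower fold of 25.96, and TRMO, a tRNA methyltransferase gene, with 27.16. Just below came the peak at the ends of RPUSD4 and FAM118B with 25.82 and that at HEXA, which encodes a subunit of a lysosomal hydrolase, with 25.59. Ranked by the lower tag count, DVL2 was at rank 130 of the 1907.

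The strand of the genes around this peak shows which ends it touches. The peak centre lay 39 bp from the 5′ end of DVL2 in list 1 and 0.5 bp from it in list 2. PHF23, a PHD finger gene, is on the same minus strand, and it is its 3′ end that lay 482 and 520.5 bp from the peak centres. PHF23 had a peak of its own near a RefSeq start in list 2 alone, with a fold of 9.21, 62 tags and a summit 256 bp upstream of that start.

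The other peaks within 10 kb of DVL2 lay at neighbouring genes rather than at DVL2. A shared peak 8519.5 bp upstream of it, at chr17:7242571-7243502 in list 1, had 80 tags and a fold of 8.52 in list 1 (FDR 38.14%). It overlapped 2 separate peaks of list 2, with folds of 13.81 (62 tags, FDR 0.19%) and 5.31 (46 tags, FDR 3.58%). Its list 1 centre was 587.5 bp from the 5′ end of GABARAP, an autophagy gene, and 554.5 bp from the 3′ end of CTDNEP1, a nuclear envelope phosphatase gene. On the far side of DVL2, a peak of list 2 alone (fold 7.08, 65 tags, FDR 0.75%) lay 245 bp from the 5′ end of DLG4, a synaptic scaffold gene, and covered a start of ACADVL, a fatty acid oxidation gene. So within this stretch a single peak, that at the 5′ end, touched DVL2 itself, and it was present in both lists.

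**Figure D2:**
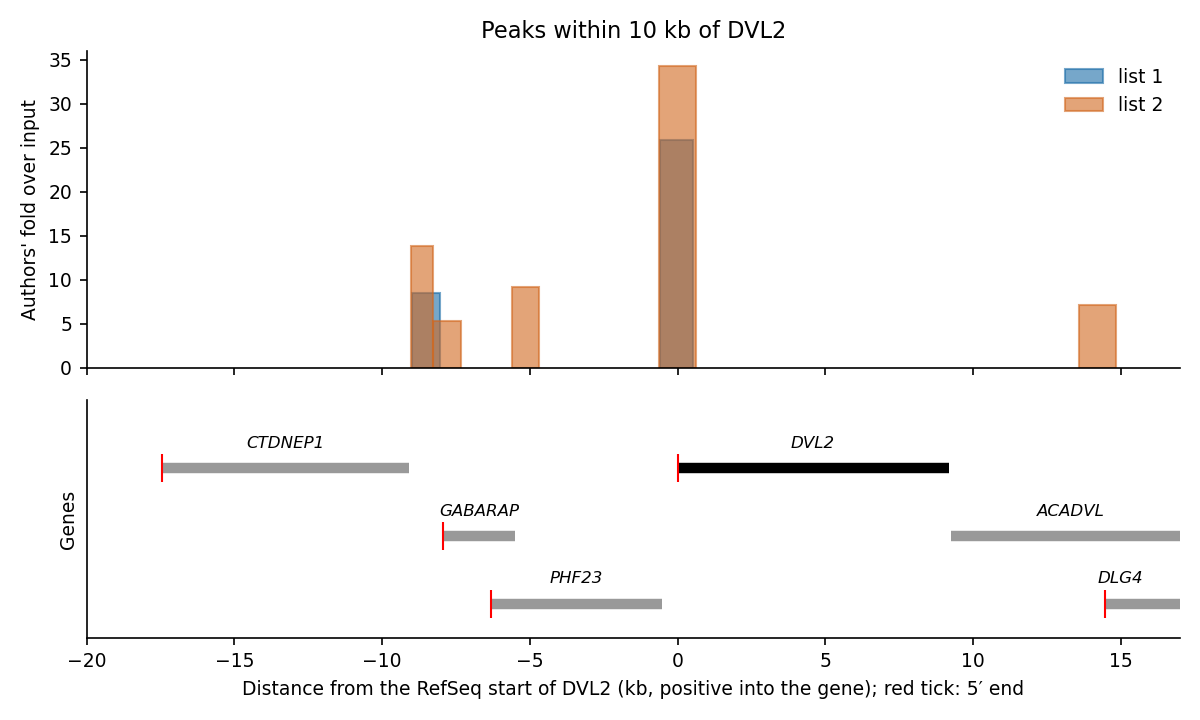
Peaks within 10 kb of DVL2 as bars (height, authors' fold over input; width, peak width; list 1 blue, list 2 orange) above the protein-coding genes, against distance from the RefSeq start of DVL2 in kb, with 5′ ends in red. The tallest bars of both lists stand at the DVL2 start, at 25.89 in list 1 and 34.29 in list 2, and the remaining bars stand beside GABARAP, PHF23 and DLG4.

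The paralogues of DVL2 had no peak in the gene in either list. At DVL1 the nearest peak centre lay 57957.5 bp away in list 1 (fold 5.02, 33 tags, FDR 100%, near the start of MRPL20) and 25384 bp away in list 2 (fold 8.5, 41 tags, FDR 6.24%, inside PUSL1). At DVL3 the nearest list 1 peak was 12415 bp away, with a fold of 6.25, 46 tags and an FDR of 100%, and lay 170 bp upstream of the start of ABCF3. List 2 had 2 peaks within 10 kb of DVL3. The first had a fold of 9.69, 58 tags and an FDR of 0.3%, and its centre lay 81.5 bp inside the start of AP2M1, a clathrin adaptor gene 3′ of DVL3. The second, with a fold of 5.29 and an FDR of 15.3%, was 9533.5 bp from DVL3 and 532.5 bp from the 3′ end of EIF2B5, a translation factor gene. Neither the DVL1 nor the DVL3 window held CACGTG. DVL3 had 2 elements of the CANNTG class, 230 and 104 bases before its start, and DVL1 had none.

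APC, the large scaffold of the destruction complex and a tumour suppressor, had the next strongest peak, at its inner start and not at the gene's end. In list 1 this peak, at chr5:112737514-112738688, held 128 tags (106.8 to 152.2) with a fold of 12.5 and an FDR of 5.84%. In list 2, at chr5:112737424-112738462, it held 129 tags (107.7 to 153.3) with a fold of 21.5 and an FDR of 0. Tag counts were thus nearly equal and the folds were not. The fold is a ratio at the summit to input and local background, and why the folds differed was not tested. The summits lay 7 bp apart, closer than in 86.8% of the 5336 shared peaks. By the lower fold the peak was at rank 179 of all shared peaks, where DVL2 was at rank 12. The list 1 centre of this peak lay 30603 bp from the nearer gene end, so a count of gene-end peaks leaves it out.

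The outer start of APC had a peak in list 1 alone, with 81 tags, a fold of 7.95 and an FDR of 18.85%, whose summit lay 25 bp inside the start. In list 2 the closest peak to that start had its centre 4909.5 bp into the gene (42 tags, fold 4.96, FDR 8.43%) and did not overlap it. Another list 1 peak lay deep in the gene, with 29 tags, a fold of 6.55 and an FDR of 100%, and was also absent from list 2. Of the 5 APC peaks in both lists together, the pair at the inner start was the one that was shared.

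AXIN1, the limiting scaffold of the same complex, had a shared peak upstream of its 5′ end that was weak by fold. Its values were 80 tags (63.4 to 99.6), a fold of 5.11 and an FDR of 60.79% in list 1, at chr16:352602-353639. In list 2, at chr16:352459-353675, they were 85 tags (67.9 to 105.1), a fold of 5.71 and an FDR of 0.74%. The list 1 summit was 376 bp and the list 2 summit 306 bp upstream of the start, beyond the sequence that was available. The lower fold of 5.11 was below the median of 5.25 for shared gene-end peaks, and 34.9% of all shared peaks had a smaller one. List 2 held 3 further peaks inside AXIN1, between 24972.5 and 33979 bp from the start, with folds of 3.62 to 5.87 and FDRs of 7.89 to 23.69%, none of which overlapped a list 1 peak.

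AXIN2, a scaffold related to AXIN1 and a feedback target of the pathway, had peaks in list 2 alone. One lay 242 bp outside the gene's higher-coordinate end (69 tags, fold 3.94, FDR 11.98%) and the other 3400.5 bp outside it (50 tags, fold 5.27, FDR 15.58%). A fold below 3.94 was found at 11.6% of list 2 peaks. The nearest list 1 peak was 111780 bp away, inside CEP112, with 29 tags and a fold of 5.19.

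GSK3B, the kinase that phosphorylates β-catenin, had peaks in both lists, none of which overlapped. List 2 had a single, very wide peak over the 5′ end, 3069 bp long at chr3:120092927-120095995, with 223 tags (194.7 to 254.3), more than any other peak of the 10 genes. Its fold was 6.17 and its FDR 0.16%. Spread over its width it had 7.27 tags per 100 bp, where the DVL2 peak of list 2 had 16.5. It was wider than 98.3% of list 2 peaks and also covered the start of the divergent non-coding gene GSK3B-DT. List 1 had no peak there. It had 4 peaks inside the gene instead, 27147.5 to 181277.5 bp from the start, with 30 to 38 tags, folds of 4.85 to 7.65 and FDRs of 74.86 to 100%. The GSK3B window held no E-box of the CANNTG class.

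LRP6, the co-receptor of Frizzled, had the most distant peaks of the 10 genes. The nearest centre lay 344945.5 bp away in list 1, at CREBL2 (42 tags, fold 5.72, FDR 100%). In list 2 it was 90265.5 bp away (40 tags, fold 7.02, FDR 3.66%). LRP6 and DVL1 were the 2 genes with no peak within 10 kb in either list.

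CTNNB1, which encodes β-catenin, had a peak at its start in list 2 alone. It spanned 1383 bp at chr3:41198553-41199935, with 84 tags (67 to 104), a fold of 6.21 and an FDR of 0.42%, and its summit lay 57 bp upstream of the start. In list 1 the nearest peak was 11076.5 bp upstream of the gene, just beyond the 10 kb limit, with 33 tags, a fold of 4.88 and an FDR of 100%. Around the limit of 10 kb, then, the CTNNB1 peak of list 1 at 11076.5 bp fell just outside and the DVL3 peak of list 2 at 9533.5 bp just inside.

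TCF7L2, the partner of β-catenin on DNA, had a shared peak far inside the gene. It held 32 tags (21.9 to 45.2), with a fold of 5.8 and an FDR of 100% in list 1, at chr10:113073536-113074138. In list 2, at chr10:113073336-113074193, it held 52 tags (38.8 to 68.2), with a fold of 5.71 and an FDR of 8.47%. The nearest RefSeq start of TCF7L2 was 52796 bp downstream of the list 1 centre, and the summits of the lists lay 56 bp apart. A second peak inside the gene, in list 2 alone, had a fold of 4.05 and an FDR of 18.46%. None of the 3 TCF7L2 windows held CACGTG or a summit of either list.

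**Figure D3:**
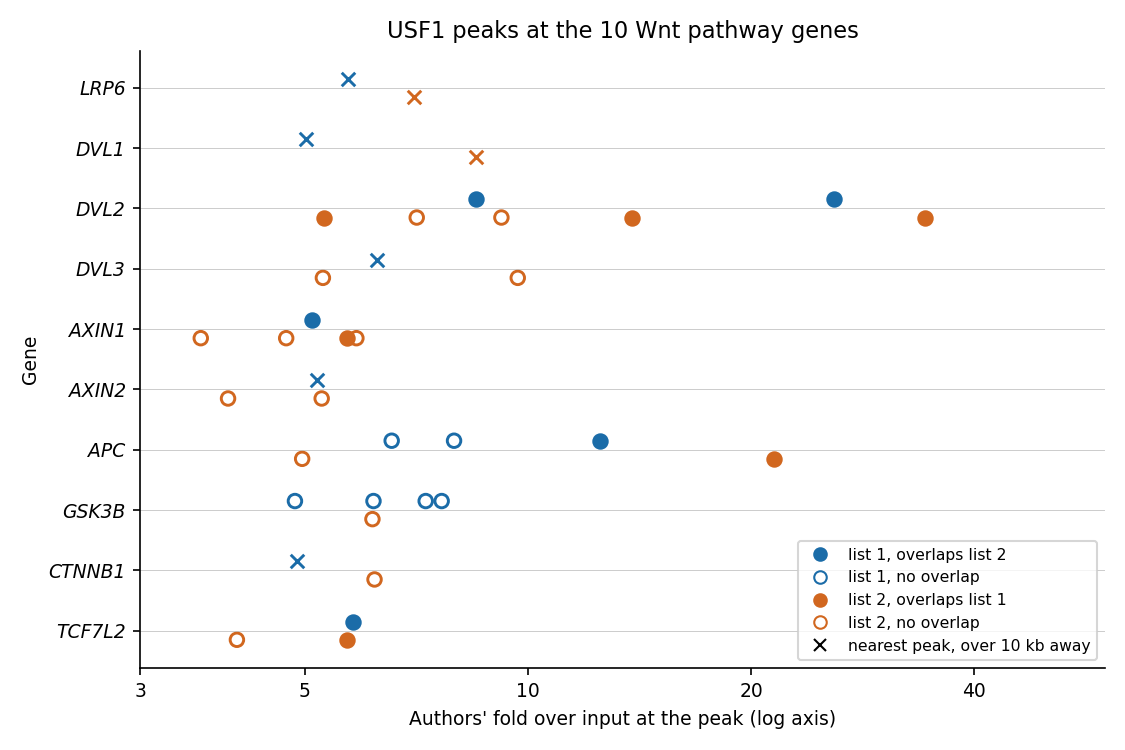
Authors' fold over input (log axis) of each peak within 10 kb of the 10 genes, list 1 blue and list 2 orange, filled where the peak overlaps one of the other list and open where it does not; crosses give the nearest peak of genes with none within 10 kb. DVL2 and APC have the filled points above 10-fold, and LRP6 and DVL1 have crosses in both lists.

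Within 10 kb of the 10 genes there were 11 peaks in list 1 and 19 in list 2, of which 5 and 6 overlapped the other list. Such a peak was present in list 1 at 5 of the 10 genes, beside 32.7% of protein-coding genes. In list 2 it was present at 8, beside 56.8%, and 4 (DVL2, AXIN1, APC and TCF7L2) had a shared one, beside 21.6%. DVL3 was counted in list 2 only through the peaks near the ends of AP2M1 and EIF2B5. Since the genes were chosen with these peaks known, nothing is read from these shares. Length also bears on them: among protein-coding genes of at least 100 kb, which include APC, GSK3B, LRP6 and TCF7L2, the shares were 53.9%, 79.1% and 30.3%.

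Stricter thresholds left few of the genes. A shared peak reaching 8-fold in each list was found at DVL2 and APC (2 of 10, beside 4.38% of protein-coding genes). One whose FDR stayed within 5% in each list was found at DVL2 (1 of 10, beside 1.85%), and APC missed this with 5.84% in list 1. At gene ends 3 of the 10 had a peak in list 1 (APC, AXIN1 and DVL2, beside 14.9% of protein-coding genes) and 5 in list 2 (CTNNB1, GSK3B, AXIN1, DVL2 and AXIN2, beside 30.1%). A shared one was present at 2, DVL2 and AXIN1, beside 11.5%. With distances taken to RefSeq starts, an approach chosen after the data were seen, APC was added and the count was 3 of the 8 genes in the promoter table, beside 13%.

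The lower of the 2 folds had a median of 5.77 over all 5336 shared peaks. Among the 5 shared list 1 peaks of the set, DVL2 was chosen for its fold, and the peak of 8.52 lay at GABARAP and not at DVL2 itself. Of the other 3, APC (12.5) was above that median, and TCF7L2 (5.71) and AXIN1 (5.11) were below it. The summits of the 5 lay 7 to 70 bp from those of list 2, with a median of 34 bp against 38 bp. With each paired to the list 2 peak it overlapped most, the fold was higher in list 2 at 4 of the 5, beside 63% of all shared peaks. TCF7L2 was the exception, with 5.8 in list 1 and 5.71 in list 2. The peak at GABARAP also overlapped a list 2 peak with the lower fold of 5.31. An FDR within 5% was held by 1 of the 11 member peaks of list 1, beside 1.92% of all its peaks, and by 10 of the 19 of list 2, beside 30.8%. The list 2 peaks within 5% included those at DLG4, PHF23, GABARAP and AP2M1, which are neighbours and not members. Nothing is read from this share. The median FDR of the member peaks was 74.86% in list 1 and 3.58% in list 2, the latter held by a peak at GABARAP.

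**Figure D4:**
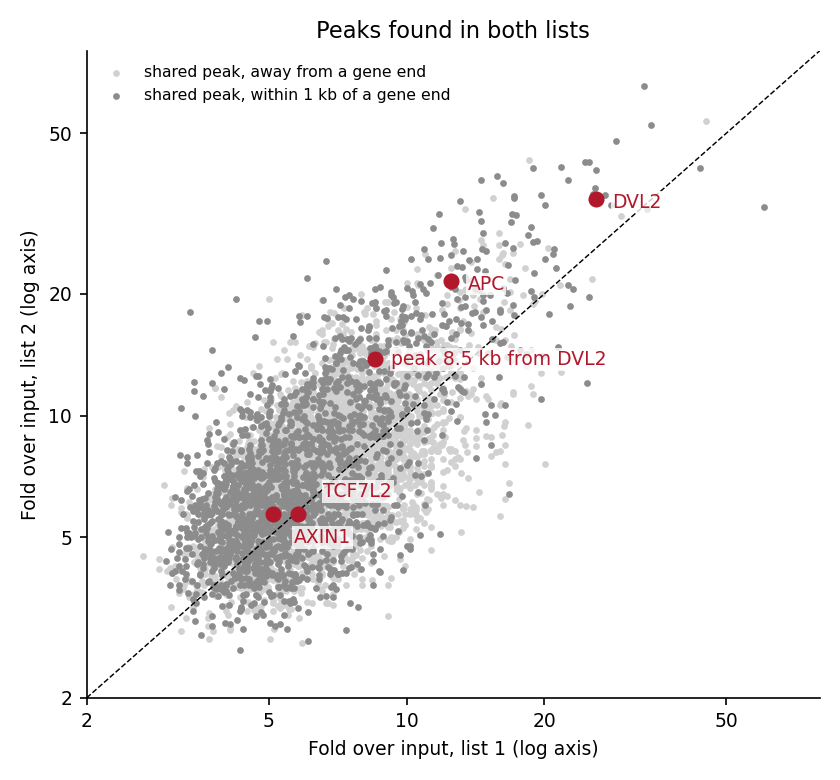
Fold over input in list 1 against list 2 (log axes) for all 5336 shared peaks, dark grey within 1 kb of a gene end and light grey elsewhere, with the 5 shared peaks of the Wnt genes in red and the line of equal fold dashed. DVL2 and APC lie toward the upper right and AXIN1 and TCF7L2 in the dense part of the cloud.

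The rest of the pathway was described with a list of 110 further Wnt genes grouped by role, chosen with earlier results of these data known. A peak within 10 kb was found for 31 of them (28.2%) in list 1 and for 62 (56.4%) in list 2, beside 32.7% and 56.8% of protein-coding genes. A shared one was found for 18 (16.4%, beside 21.6%), and a shared gene-end peak for 10 (9.09%, beside 11.5%). These shares were near those of protein-coding genes in general. The lower folds of the 10 gene-end peaks ranged from 3.59 to 9.31 with a median of 5.61, all below the 25.89 of DVL2. Summits of the lists lay within 100 bp of each other at 5 of the 10, DKK4, TNKS2, FZD4, CHD8 and CSNK1G2. Over all 1907 shared gene-end peaks the median distance was 50 bp, so the summits of these genes are not read as unusually close. Folds of 8 or more in each list were reached by 2 of the 110 at gene ends, beside 2.09%, and FDRs within 5% in each list by 0, beside 1.1%.

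Split by role the groups are small, and no difference between roles is read from the counts, which are given beside the 11.5% of protein-coding genes with a shared gene-end peak. None of the 19 Wnt ligands, 3 secretion genes or 9 known target genes had one. Among 17 secreted agonists and antagonists the one gene (5.88%) was DKK4, an LRP6 antagonist (5.65-fold and 6.38-fold in lists 1 and 2). Among 19 receptors and receptor ligases there were 2 (10.5%), FZD5 (5.79-fold and 8.21-fold, at its 5′ end) and FZD4 (5.91-fold and 5.17-fold, at its 3′ end).

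Of 26 genes of the cytoplasmic relay, 4 (15.4%) had one. TNKS2, a tankyrase that marks AXIN for degradation, had 8.88-fold and 9.14-fold, with 52 and 51 tags. The casein kinase genes CSNK1G2 (6.45-fold and 8.84-fold) and CSNK1G3 (3.79-fold and 7.01-fold) and the GSK3B paralogue GSK3A (4.1-fold and 3.59-fold, at its 5′ end) followed. The summits of the lists lay 45 bp apart at CSNK1G2, 196 bp at GSK3A and 809 bp at CSNK1G3. List 1 FDRs of these peaks were 27.99%, 63.43% and 100%. Among 17 nuclear factors there were 3 (17.6%): CHD8, a chromatin remodeller that binds β-catenin (9.51-fold and 9.31-fold, at its 3′ end), and the co-repressor genes TLE4 (5.57-fold and 9.67-fold) and TLE1 (5.07-fold and 4.66-fold).

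TNKS2 was the one gene of the 83 in the promoter table whose window held the summits of both lists. The CACGTG in its printed sequence began 47 bases before the start, and its centre lay 8.5 bp from the list 1 summit and 31.5 bp from the list 2 summit. The other 4 with CACGTG among the 83 (APC2, RSPO4, SIAH1 and TLE3) had no pair of shared summits there. Over all windows of the table, 3.89% held both summits of a shared peak and 7.23% held CACGTG. Those shares are by window and not by gene. The list 1 FDR of the TNKS2 peak was 33.07% and that of list 2 1.27%.

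**Figure D5:**
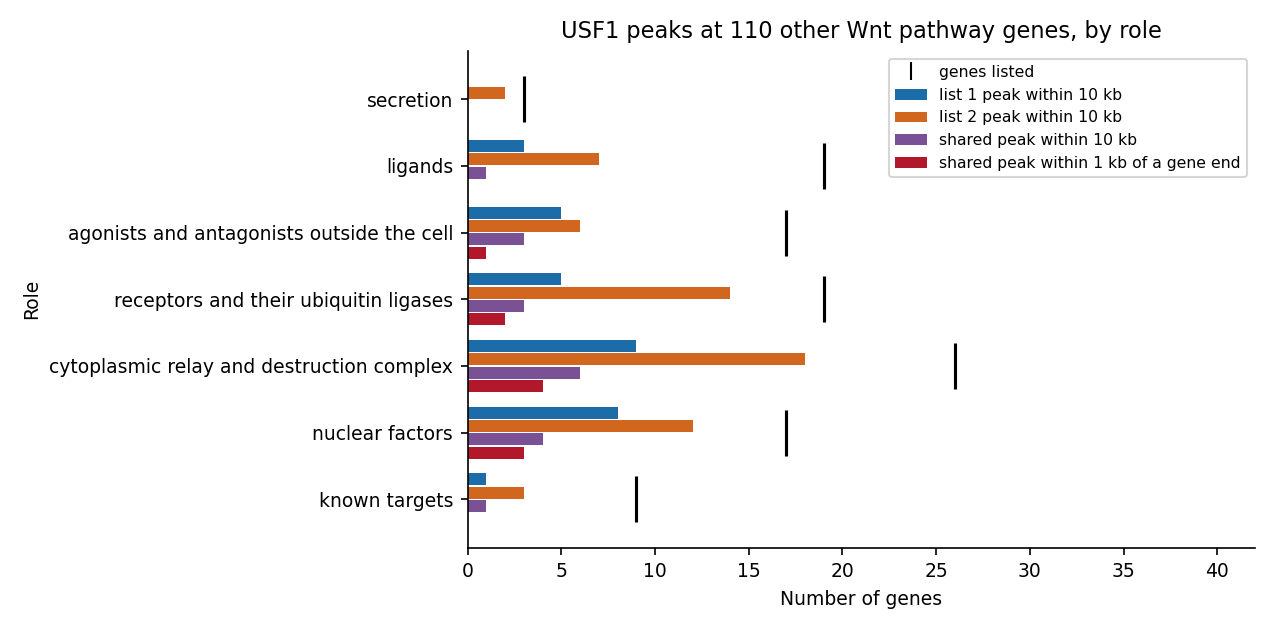
Number of the 110 further Wnt genes with a peak, by role, for list 1, list 2, shared peaks within 10 kb and shared peaks within 1 kb of a gene end, with a black tick at the number of genes listed. Shared gene-end peaks stand at 4 of 26 cytoplasmic relay genes, 3 of 17 nuclear factors and 0 of 19 ligands, beside 11.5% of protein-coding genes.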

How the data were processed

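Per the file headers, each list was called with MACS 1.4.2 from 1 IP against the input of its number (p cutoff 1e-05, at most 1 tag kept per position, larger library scaled to the smaller, replicates not pooled). The submitters' processing notes name Bowtie2, HOMER, deepTools and GRCh38, without roles. The deposited values are a count of IP tags per peak, the authors' fold (a ratio to input and local background), a score (the log10 of the caller's p, times minus 10) and an FDR in percent. Summits were taken as start plus offset minus 1, and a caller that counts from 0 would shift them by 1 bp.

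Peaks were joined to RefSeq genes of GRCh38.p14 by their centre in Python 3.11.15 (numpy 2.4.6, pandas 2.3.3, scipy 1.17.1, matplotlib 3.10.9). A shared peak was placed by its list 1 centre. All 10 genes and all 110 further Wnt genes matched by symbol. Of these, 8 and 83 were in the promoter table, which gives strand and sequence. AXIN2 and LRP6 were not matched there. The overlap and distance steps were tested on simulated peaks with known positions. No test was made between the lists, because peak values describe their own list.

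Genes, lists and alternatives were chosen with earlier results of these data known. Named were the 10 genes, the Wnt genes with a shared gene-end peak, the protein-coding genes whose ends lie within 1 kb of a member peak, and the 2 peaks on each side of DVL2 in rank. Genes named for the nearest peak or for a motif were added after their values were seen. Stricter fold, p and FDR thresholds, other overlaps, distances and positions, and each list alone were tried. Exon positions were not used here.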

Additional observations from a re-analysis of the deposited data

How the results depend on the processing

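Counts below are out of 10 genes, or of 110 further Wnt genes. With replicate 1 left out (list 2 alone) 8 of the 10 had a peak within 10 kb and 5 a gene-end peak, and with replicate 2 left out (list 1 alone) 5 and 3, against 4 and 2 shared. For the 110 genes, list 2 alone gave 62 and 32 and list 1 alone 31 and 17, against 18 and 10. The gene-end counts of single lists were 29.1% of the 110 in list 2 and 15.5% in list 1. Over protein-coding genes, list 2 gave 56.8% within 10 kb and 30.1% at gene ends, and list 1 gave 32.7% and 14.9%. Shared peaks gave 21.6% and 11.5%. With folds of 8 or more in each list the 4 counts were 2, 1, 4 and 2. For the 110 genes these were 3.64% within 10 kb and 1.82% at gene ends, beside 4.38% and 2.09% of protein-coding genes. At an FDR of at most 5% the counts were 1, 1, 0 and 0, beside 1.85% of protein-coding genes within 10 kb and 1.1% at gene ends. At a caller p of at most 1e-10 the 110 genes gave 9 and 5. Within 50 kb of the gene, 35 of the 110 had a shared peak. With summits within 100 bp, 5 had a shared gene-end peak. No share over all protein-coding genes was computed for the p, 50 kb and summit settings. Their counts are therefore not read as high or low. With RefSeq starts, tried after the data were seen, 6 of the 83 in the promoter table had a shared peak within 1 kb (7.23%). The same share over all protein-coding genes in that table was 13%. Fewer genes were examined there. Other settings kept these 4 counts within 1.5 times. DVL2 ranked at 130 by tag count and 9 by score among 1907 peaks, at 20 of 5252 in list 2 alone and at 10 of 2517 in list 1 alone. Centres of shared member peaks lay a median of 72.5 bp apart, against 34 bp for summits. Of the 8 member genes in the promoter table, 5 had CANNTG in a window and 2 had CACGTG. Over all windows, counted by window and not by gene, the shares were 68.7% and 7.23%. Stricter thresholds leave fewer peaks, and the causes of these shifts were not tested. No paired analysis was possible because the counts come from no test and the lists hold no values of single input libraries. The smallest member peak held 29 tags (95% exact Poisson interval 19.4 to 41.6), so its counting error was wide. An effect of depth on the weakest peaks was not tested.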

Other observations

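Several Wnt genes had shared peaks inside the gene or near it and away from its ends. They are named here because their values were seen. WIF1, a secreted antagonist that binds Wnt ligands, had a shared peak 9552 bp from the nearer gene end, with 10.05-fold in list 1 (FDR 51.09%) and 8.89-fold in list 2 (FDR 0.64%) and summits 2 bp apart. RSPO4, a secreted agonist of the pathway, had one 9903.5 bp from its nearer end, with 9.39-fold (FDR 16.02%) and 8.98-fold (FDR 3.65%). Its promoter window held 2 copies of CACGTG and no pair of shared summits.

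ROR1, a receptor for Wnt5a, had 2 shared peaks within 10 kb. The stronger had 10.64-fold (FDR 16.88%) and 6.86-fold (FDR 13.1%) and lay 161441 bp from a gene end. NKD1, an antagonist of Dishevelled, had 3, the strongest with 7.89-fold (FDR 83.26%) and 10.58-fold (FDR 0.64%) and summits 7 bp apart. CD44, a cell adhesion gene among the known targets, had one with 7.17-fold (FDR 100%) and 11.12-fold (FDR 0.25%), 15969.5 bp from the nearer end. APC2, the APC paralogue, had 4 shared peaks within 10 kb. The strongest had 7.09-fold (FDR 88.29%) and 7.79-fold (FDR 1.13%), with its centre 5993 bp outside the gene. The lowest lower folds of this kind were at WNT9A, a ligand gene, and TLE3, a nuclear factor gene. WNT9A had 3.86-fold in list 1 and 6.37-fold in list 2, and TLE3 had 5.47-fold and 9.32-fold.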
